A study of Mus musculus with 2 samples.

Results

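The genes described here are 10 nuclear regulators of mitochondrial biogenesis, the making of new mitochondria, in mouse osteoclast cultures with and without the DNA methyltransferase Dnmt3a. They were taken by name from a list of genes: Ppargc1b, Esrra, Nrf1, Gabpa, Myc, Tfam, Polrmt, Tfb1m, Tfb2m and Polg. A probe belonged to one of them when its RefSeq accession was that of the gene. All 10 had at least 1 such probe, of 20650 genes named on the array, and together they had 16 probes. All 10 genes were well above background on both arrays, as were 13476 genes in all.

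The study compared Dnmt3a knockout osteoclasts with wild type osteoclasts, both derived from bone marrow of female C57BL/6 mice, on 1 one-colour (Cy3) Agilent array each. Per the labels, nonadherent marrow cells were kept in macrophage colony-stimulating factor (M-CSF) for 2 days, and the adherent monocyte/macrophage precursors then received M-CSF with RANKL, the cytokine that makes such precursors fuse into bone-resorbing osteoclasts. The knockout allele, the cells in which it was deleted and the number of mice behind each culture are not given in the sources used here. Neither genotype was replicated: 1 array stands for each, no p-value is given, and the spread between cultures of a genotype is unknown.

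Osteoclasts are rich in mitochondria, which multiply as the precursors differentiate. Mitochondria are built from nuclear and mitochondrial genes together: the coactivators of the PGC-1 family dock on transcription factors such as the estrogen-related receptor ERRα and the nuclear respiratory factors, which switch on nuclear genes for the respiratory chain and for the factors that copy and transcribe mitochondrial DNA (mtDNA). In mouse osteoclasts the family member PGC-1β, encoded by Ppargc1b, is known to be induced by RANKL and to be needed for normal mitochondrial content. Myc is likewise known to be induced by RANKL and to act upstream of ERRα in these cells.

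The upstream members Ppargc1b and Myc were lower on the knockout array, by 1.43-fold and 1.48-fold, and Esrra was 1.16-fold lower. By their brightest probes, the factors Nrf1 and Gabpa were nearly equal on both arrays. The 2 other Nrf1 probes were higher on the knockout array, with log2 differences of 0.13 and 0.41. Of the mtDNA machinery, Tfb1m, Tfb2m and Polrmt were 1.17-fold, 1.16-fold and 1.14-fold lower. Polrmt lay within the scanner error, and Tfb1m, Tfb2m and Esrra lay only just beyond it. Tfam and Polg differed by 1.04-fold upward and 1.03-fold downward, also within the scanner error. In all, 9 of 10 genes had a log2 difference (knockout minus wild type) below 0, with a median of -0.20, against 48.1% of all measured genes below 0 and a median of 0.01 over them. Of the 9, Nrf1 (-0.01), Gabpa (-0.01) and Polg (-0.05) were close to 0, well within the scanner error. Over all 16 probes of the 10 genes, 12 lay below 0 and the median was -0.09. A size of 1.5-fold stood in for a call. No member reached it (0 of 10 lower, 0 of 10 higher), where 10.5% of the 13476 measured genes did, 4.69% lower and 5.82% higher on the knockout array. At 2-fold the count was again 0 of 10, against 1.55% of the measured genes, 0.824% higher and 0.727% lower.

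**Figure D1:**
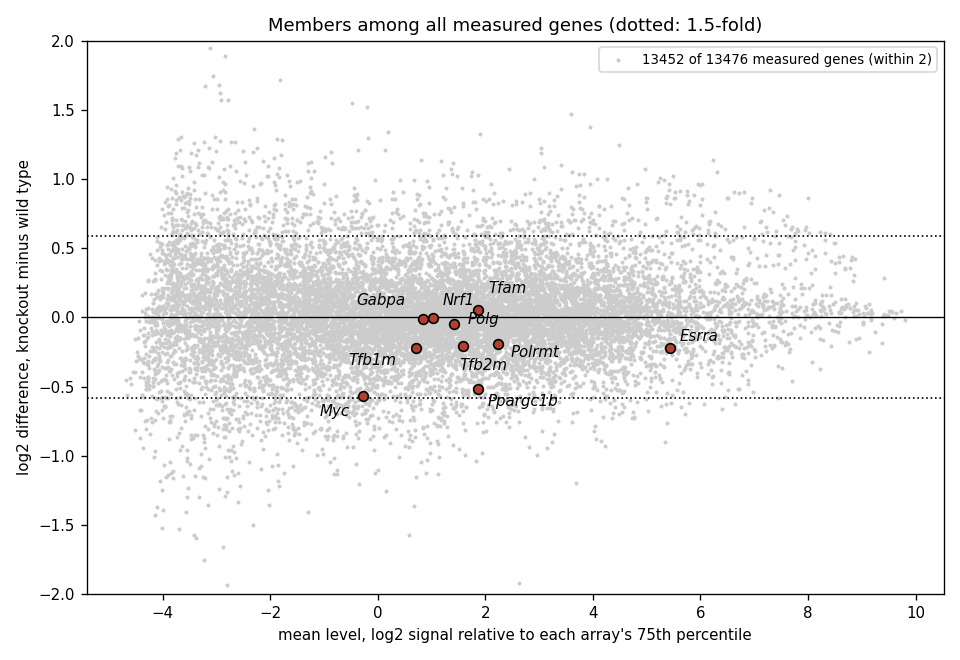
Log2 difference (knockout minus wild type) against the mean level of both arrays (log2 signal relative to the 75th percentile of each array) for the measured genes, in grey, and the 10 regulators, in red; the axis leaves out genes beyond 2 in either direction. Ppargc1b (-0.52) and Myc (-0.57) lie just above the lower dotted line, which marks 1.5-fold, and Nrf1, Gabpa, Polg and Tfam lie close to 0.

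Levels are processed signals, the spot brightness after the scanner software subtracted the background. Before a difference was taken, each signal was divided by the 75th percentile of its array, which was 572 on the knockout array and 584 on the wild type array. The scanner error printed with a difference combines what the scanner software gives for the pair of spots, on the log2 scale. It covers the measurement of a spot only, and over the 10 members it lay between 0.20 and 0.21. At these levels the software's error was a nearly fixed share of the signal. The scanner error was thus nearly the same size for every member, not one particular to a gene. Repeated spots varied less: over 259 probes with at least 8 measured spots, the SD of the difference had a median of 0.07. Of 59305 spots, 59.7% were well above background on the knockout array and 52.7% on the wild type array, and no spot was saturated. Per the file headers, the arrays shared 1 slide and 1 scan.

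Dnmt3a itself checks the label. Its probe gave a signal of 1822 on the knockout array, against 7042 on the wild type array, a log2 difference of -1.92 (scanner error 0.20). Whether this probe lies in the deleted part was not tested.

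The cultures also differed in markers of cell types. The osteoclast markers Acp5 and Ctsk were bright on both arrays, with signals of 442434 and 356772 in the knockout and 451856 and 413300 in the wild type. All 11 osteoclast markers were measured and had differences below 0 (median -0.58), with a summed signal of 1729 times the 75th percentile on the knockout array and 1989 times on the wild type array. Among them Acp5 (-0.00) was nearly equal on both arrays, and Ctsk (-0.18) lay within its scanner error of 0.20. Of 11 measured macrophage markers 10 lay above 0 (median 0.69, sums 1119 and 854 in the knockout and in the wild type), as did 10 of 10 neutrophil markers (median 0.47, sums 482 and 392) and 6 of 7 dendritic cell markers (median 0.40, sums 229 and 228). Stromal and osteoblast markers had 7 of 10 below 0 (median -0.61, sums 102 and 154), with Runx2 and Lum not well above background on either array. The remaining lists gave medians of 0.18 (B cell, 6 genes, sums 10.3 and 9.30), 0.17 (T and NK cell, 4 genes, sums 14.8 and 15.4), -0.37 (erythroid, 4 genes, sums 1.47 and 1.64) and 0.08 (megakaryocyte, 6 genes, sums 65.4 and 41.3), with Xcr1 of the dendritic list and Cd3d, Cd3g, Klrb1c and Klf1 not well above background on either array. The sums weigh bright genes most. Siglech (128085 in the knockout, 130427 in the wild type) made up most of the dendritic sums. Pf4 (31182.8 in the knockout, 17966.5 in the wild type) made up most of the megakaryocyte sums. In such bulk samples fewer cells of a type and less RNA of a gene per cell cannot be told apart. The part of these markers in the differences of the 10 regulators was not tested.

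The coactivator gene Ppargc1b had a signal of 1735 on the knockout array, against 2539 on the wild type array. The knockout array was thus the lower, at 69.8% of the wild type level after scaling. The log2 difference was -0.52 (scanner error 0.20, 1 probe, 1 spot), larger than the scanner error and short of the 1.5-fold size. Of the 1609 measured genes whose mean level lay within 0.5 log2 units of that of Ppargc1b, 3.85% had a lower difference. The 332 measured spots within 15 rows and columns of it had a median difference of -0.01.

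The other coactivators of the family were dimmer. The signal of Pprc1, which encodes the PGC-1-related coactivator induced by growth signals, was 148 on the knockout array and 195 on the wild type array, a difference of -0.37 (scanner error 0.21). Ppargc1a, the family member of muscle, brown fat and fasting liver, was not well above background on either array, so its level is only bounded by the background. Perm1, a muscle regulator in the same pathway, was well above background on the knockout array only, with signals of 32.1 and 14.5 in the knockout and in the wild type.

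Esrra encodes ERRα, an orphan nuclear receptor that is a main partner of PGC-1β. Its probe gave 22754 on the knockout array, against 27051 on the wild type array. The difference of -0.22 (scanner error 0.20, 1 probe) was just beyond the scanner error, and 15.3% of 535 genes of like level had a lower one. Of its paralogues, Esrrg was not well above background on either array. Esrrb, best known from pluripotent stem cells, went the other way: its signal was 191 on the knockout array, against 36.9 on the wild type array, a difference of 2.40 (scanner error 0.34). This rests on 1 dim spot in row 26 of the array.

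Nrf1 encodes nuclear respiratory factor 1, which activates cytochrome c and many other respiratory genes. The brightest of its 3 probes gave 1162 on the knockout array and 1192 on the wild type array, a difference of -0.01 (scanner error 0.20). Its other 2 probes were dimmer and pointed upward. One read 123 in the knockout and 115 in the wild type (0.13, scanner error 0.23), and the other read 90.8 and 69.7 (0.41, scanner error 0.25). The probes therefore do not agree on a direction.

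Gabpa encodes the DNA-binding subunit of GABP, also called nuclear respiratory factor 2, an ETS-family factor. Both of its probes were nearly level: 1017 in the knockout and 1044 in the wild type (-0.01), and 327 and 349 for the dimmer probe (-0.07), each with a scanner error near 0.20. The partner subunits, which carry the activation domain, were close to 0 as well, with Gabpb1 at -0.10 (other probe -0.09) and Gabpb2 at 0.10.

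**Figure D2:**
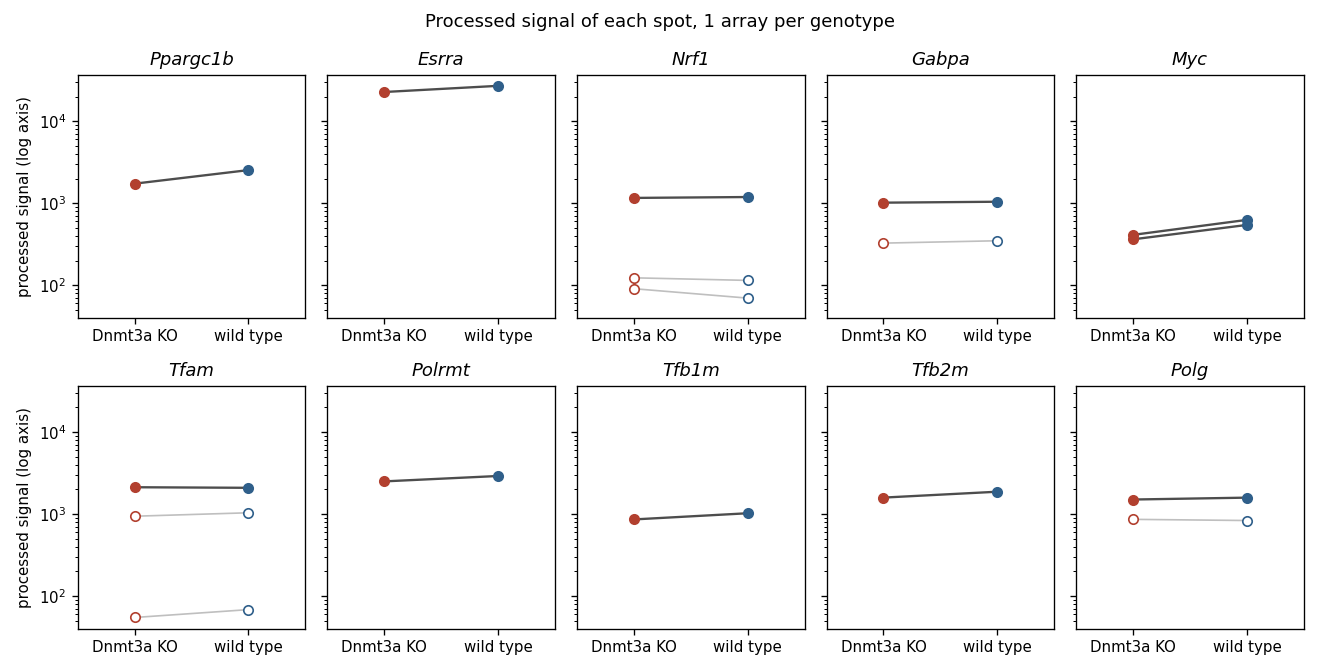
Processed signal (log axis) of every spot of the 10 regulators on the knockout array (red, left) and the wild type array (blue, right); filled points are the probe that stands for the gene, open points its other probes, and a line joins the same spot position on both arrays. The lines of Ppargc1b and Myc slope upward to the wild type array, while the brightest probes of Nrf1, Gabpa, Polg and Tfam run nearly flat.

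Promoter motifs of these genes are shown because GABP and NRF-1 are known to act on genes of the mtDNA machinery. Sequences were from a RefSeq table of GRCm38.p6 with 250 bases before and 50 after a start. It held 8 of the 10 genes, without Ppargc1b and Myc. The start is the one the table uses, and positions are counted from it. For the genes printed it lay inside the outermost annotated end of the gene, by 23 bases in Polrmt, 29 in Tfb2m, 233 in Gabpa, 240 in Esrra, 284 in Tfam and 1638 in Polg, so that a longer annotated form of a gene can span its window. Letters are 5′ to 3′ on the strand of the gene. Capitals mark the core ETS motif CCGGAAG on either strand (written CTTCCGG where it lies on the opposite one) in windows of 30 bases of Tfam (chr10:71238075-71238104, minus strand), Polg (chr7:79466294-79466323, minus strand), Gabpa (chr16:84835024-84835053, plus strand) and Polrmt (chr10:79746612-79746641, minus strand).
Tfam: ctcctgccgcggaCCGGAAGtccgggcttc
Polg: ggaggacctcacCCGGAAGtccctctgcac
Gabpa: gtaagtgCTTCCGGgtccctcagctaagac
Polrmt: gacagaccctaagagcgCTTCCGGcagtcg

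Capitals mark the NRF-1 motif GCGCNTGCG in a second window of Polrmt (chr10:79746567-79746596, minus strand), in overlapping copies across the table's start, and, on the opposite strand, in a window of Esrra (chr19:6921879-6921908, minus strand).
Polrmt: ctgcaggcgGCGCGTGCGCGTGCGcactgc
Esrra: gggtaCGCAGGCGCcgccgcctccctcgga

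Capitals mark TGCGCA, the shorter core of the NRF-1 motif, which can overlap the longer one, in another window of Esrra (chr19:6921824-6921853, minus strand) and in one of Tfb2m (chr1:179546417-179546476, minus strand). It begins 31 bases before the table's start of Esrra and 181 bases before that of Tfb2m.
Esrra: ccccctgttttgcaTGCGCAggccggcccc
Tfb2m: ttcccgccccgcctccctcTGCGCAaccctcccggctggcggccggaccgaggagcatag

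Of the 13476 measured genes, 10796 had a promoter in the table. CCGGAAG was found in 4 of the 8 regulators (Tfam, Polg, Gabpa and Polrmt), against 18.5% of those 10796 genes and 8.86% of all 32851 promoters in the table. The differences of these 4 genes were within the scanner error. GCGCNTGCG was found in 3 of the 8 (Polrmt, Esrra and, after its start, Tfb2m), against 14.0% of the measured genes and 6.31% of all promoters, and TGCGCA likewise in Polrmt, Esrra and Tfb2m (14.8% and 7.76%). The E-box CACGTG, the motif of Myc, was not found in these 8 genes (11.3% of the measured genes and 7.15% of all promoters), nor was the ERR half-site AAGGTCA (4.10% and 4.72%) or the CREB motif TGACGTCA (3.40% and 1.79%). Over the measured genes with a promoter in the table, the median difference was -0.00 for the 1999 with CCGGAAG and 0.02 for the 8797 without, and -0.02 for the 1508 with GCGCNTGCG and 0.02 for the 9288 without.

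Myc encodes a growth-promoting transcription factor with many targets in ribosome and mitochondrial biogenesis. Its probe was spotted at 2 positions. These read 412 and 363 on the knockout array, against 628 and 544 on the wild type array, so that both knockout spots lay below both wild type spots. The differences of the 2 spots were -0.58 and -0.55, and their mean was -0.57 (scanner error 0.21), the lowest of the 10 genes. Of 1495 genes of like level, 6.49% had a lower difference.

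Myc binds DNA together with Max, and the Mxd proteins, Mnt and Mga compete for that partner. Of these partners and antagonists 7 of the 9 measured genes lay above 0 (median 0.23), and none reached 1.5-fold by the probe that stands for it. (All 9 lay below 0 when the arrays were scaled to spike-in control probes, as did 94.5% of all measured genes.) Max was at 0.44, with 13470 on the knockout array and 10116 on the wild type array, and the antagonists Mxd1 and Mxd4 were at 0.49 and 0.37 (their other probes at 0.27 and 0.60). Mga (-0.10), Mycl (-0.06) and Mycbp (0.06) were lowest, and Mycn was not well above background on either array.

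A list of textbook Myc targets had 16 of 18 genes below 0 (median -0.26), again with none past 1.5-fold. Hspd1, the mitochondrial chaperonin, was lowest at -0.56, with 20884 in the knockout and 31504 in the wild type. It was followed by the polyamine enzyme Odc1 (-0.41, other probes -0.39 and -0.24) and the cap-binding factor Eif4e (-0.40, other probe -0.42). At the high end were the purine enzyme Gart (0.13), the nucleolar protein Ncl (0.04, other probe -0.14) and Cad (-0.00), which starts pyrimidine synthesis.

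**Figure D3:**
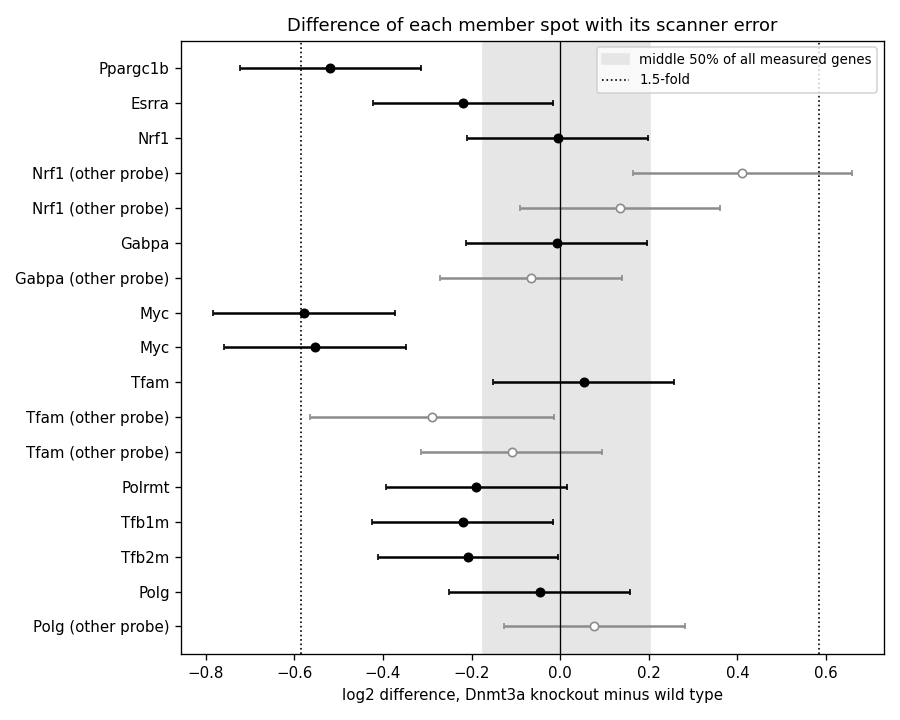
Log2 difference (knockout minus wild type) of every spot of the 10 regulators, with the scanner error of the pair of spots as bars; black points are the probe that stands for the gene, grey open points its other probes, the grey band holds the middle 50% of all measured genes (-0.17 to 0.20) and dotted lines mark 1.5-fold. Ppargc1b and both Myc spots lie left of the band with their error bars, and the probes of Nrf1, Tfam and Polg fall on both sides of 0.

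Tfam encodes the factor that packages mtDNA and opens its promoters. Its brightest probe gave 2125 on the knockout array and 2091 on the wild type array, a difference of 0.05 (scanner error 0.20). The 2 other probes pointed downward, with 941 and 1037 (-0.11) and, near background, 54.8 and 68.4 (-0.29, scanner error 0.28), the knockout value first in each pair. The 3 probes thus straddled 0.

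Polrmt encodes the RNA polymerase of mitochondria. It gave 2504 on the knockout array and 2914 on the wild type array, a difference of -0.19 (scanner error 0.20, 1 probe), just within the scanner error. Tfb2m, the factor with which the polymerase melts the promoter, gave 1589 in the knockout and 1874 in the wild type (-0.21, scanner error 0.20, 1 probe). Tfb1m, its paralogue that methylates mitochondrial ribosomal RNA, gave 860 and 1024 (-0.22, scanner error 0.20, 1 probe), again with the knockout value first. These 3 differences lay between -0.22 and -0.19, and each had 20.9% of the genes of like level below it.

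Polg encodes the catalytic subunit of the mtDNA polymerase. Its 2 probes gave 1505 and 862 on the knockout array, against 1587 and 835 on the wild type array, with differences of -0.05 and 0.08 on opposite sides of 0. Both were within the scanner error of 0.20.

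Genes that act with this machinery were read from further lists. For mtDNA transcription and RNA processing, 25 of 29 measured genes lay below 0 (median -0.13), and 1 was past 1.5-fold, the regulator Mterf2 (311 in the knockout, 488 in the wild type, -0.62, scanner error 0.21). The tRNA-processing subunit Trmt10c (-0.57) and Fastk (-0.55) followed, and Ptcd1 (0.24), the RNA-binding protein Slirp (0.22) and Mterf4 (0.12) were highest. Lrpprc, the partner of Slirp in stabilising mitochondrial messenger RNA, went the other way from it, at -0.38. Mrpl12, a ribosomal protein that also binds Polrmt, was at -0.29, and the elongation factor Tefm (-0.06) and the repressor Mterf3 (-0.13) were within the scanner error.

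For mtDNA replication and upkeep, 9 of 18 measured genes lay below 0 (median -0.04), and 2 were past 1.5-fold lower. The accessory polymerase subunit Polg2 was at 0.27 (other probe 0.08), the helicase Twnk at 0.02 and the single-strand binding protein Ssbp1 at -0.26 (other probes -0.15 and -0.03). Highest was the mitochondrial thymidine kinase Tk2 (0.39), then Polg2 and Fen1 (0.16). Lowest were Tymp, Atad3a (-0.60, other probe -0.34) and the nuclease Endog (-0.41). Tymp, the thymidine phosphorylase, was far from the rest, with a signal of 51.2 on the knockout array against 2856 on the wild type array (difference -5.77, scanner error 0.23, 1 spot in row 66). Its signal was well above background on both arrays.

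Of a list of nuclear genes taken as textbook targets of NRF-1, GABP and ERRα, 19 of 22 lay below 0 (median -0.22), with 2 past 1.5-fold lower. These were Pdk4, the kinase that shuts pyruvate out of the citrate cycle (346 in the knockout, 556 in the wild type, -0.65), and Idh3a, a subunit of the citrate cycle's isocitrate dehydrogenase (-0.59). Cytochrome c (Cycs) was at -0.47 (other probe -0.39). The exceptions were Tspo of the outer membrane (0.48), the heme enzyme Alas1 (0.04, other probe 0.03) and the import protein Tomm34 (0.04). Tfrc, the transferrin receptor through which osteoclasts take up iron for mitochondria, was at -0.43 (5075 in the knockout and 6988 in the wild type, other probes -0.43 and -0.31).

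Among cofactors and further members of the PGC-1 and ERR families, 7 of 20 measured genes lay below 0 (median 0.05). Esrrb was the only one past 1.5-fold by the probe that stands for the gene. Ppara was at 0.02 by that probe, with its 2 other probes at -0.90 and -0.76, past 1.5-fold lower. Pprc1 was the lowest, followed by the deacetylase Sirt1 (-0.23) and Mybbp1a (-0.15), and after Esrrb the highest were the nuclear receptors Ppard and Rxra (both 0.32; the other Rxra probe 0.86). Among upstream kinases and CREB factors, 4 of 14 lay below 0 (median 0.11), and Camkk2, which activates the energy sensor AMPK, was past 1.5-fold at 0.67 (16838 in the knockout, 10786 in the wild type, other probe 0.70). Mapk14 was at 0.37 (other probe 0.43), and Creb1, a known activator of Ppargc1b in osteoclasts, was at 0.36 with its other probe at -0.24. By the probe that stands for a gene, the lowest were Crtc2, Prkab1 and Prkab2, between -0.04 and -0.03. The other Crtc2 probe was at 0.10. Atf2 was at -0.01 by its brightest probe, while its 3 other measured probes lay between -3.08 and -0.29.

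Genes of mitochondrial shape and turnover had 6 of 11 below 0 (median -0.08). Pink1, the kinase that marks damaged mitochondria for removal, was past 1.5-fold at 0.67, with 11917 in the knockout and 7621 in the wild type, and the fission adaptor Fis1 was at 0.23 (other probe 0.41). The fusion gene Mfn2 (-0.37, other probes -0.27 and -0.21), Bnip3 (-0.27, other probes -0.18 and -0.13) and the fission gene Dnm1l (-0.26) were lowest.

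**Figure D4:**
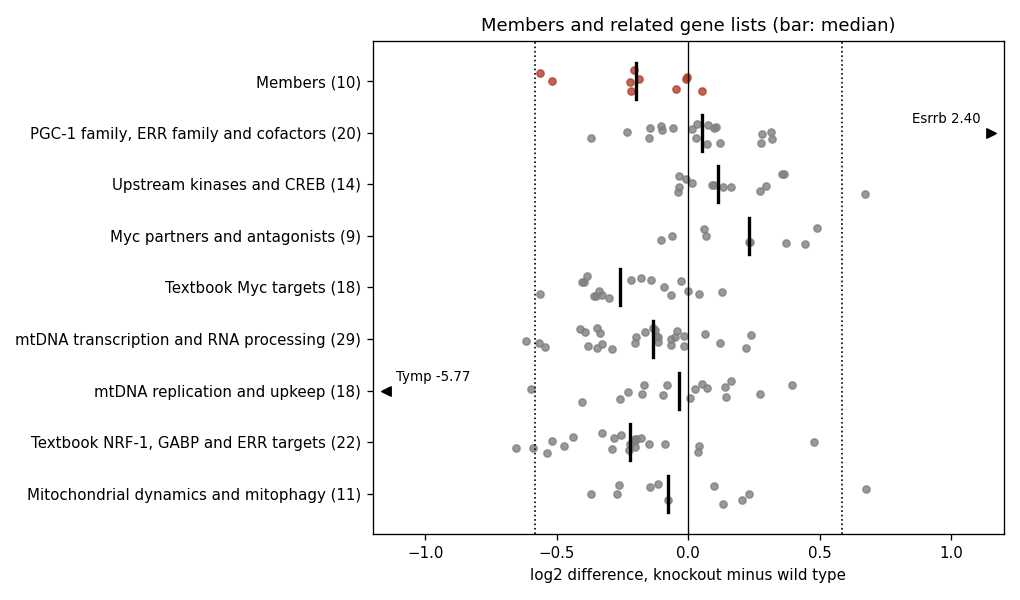
Log2 difference (knockout minus wild type) of each measured gene (points) of the 10 regulators, in red, and of related gene lists, in grey, with the number of measured genes in parentheses, the median as a bar and 1.5-fold as dotted lines; triangles mark the genes beyond the axis. The medians of the regulators (-0.20), of Myc targets (-0.26) and of NRF-1, GABP and ERR targets (-0.22) lie below 0. That of Myc partners (0.23) lies above it, though all 9 Myc partners lie below 0 with spike-in scaling, as do 94.5% of all measured genes.

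All these signs are relative to the bulk of genes on each array. Scaling to the median of the 8 spike-in control probes moves every difference down by 0.60 and the median of all genes to -0.59. With it, 94.5% of all measured genes lie below 0. All 10 regulators then do so too, from -1.16 (Myc) and -1.12 (Ppargc1b) to -0.55 (Tfam). The 9 measured Myc partners and antagonists, whose median is 0.23 in the main scaling, then all lie below 0 as well. The medians of the PGC-1 cofactors (-0.55), the upstream kinases (-0.49), the neutrophil (-0.13), dendritic (-0.20), B cell (-0.42), T and NK cell (-0.43) and megakaryocyte markers (-0.52) also turn negative under that scaling, and that of the macrophage markers stays above 0, at 0.10. The distance of a gene to the median gene is the same under both scalings. The single spike-in probes ranged from 0.29 to 0.72. Of the genes past 1.5-fold, 55.4% were higher on the knockout array with the main scaling, 44.5% after quantile normalization and 0.735% with the spike-in scaling.

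**Figure D5:**
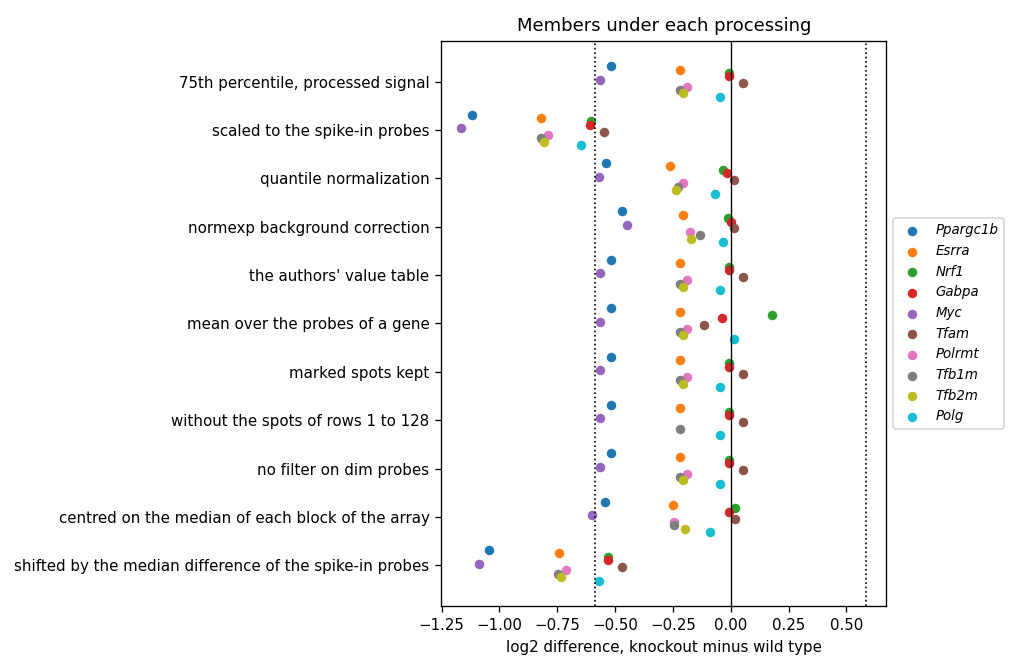
Log2 difference (knockout minus wild type) of each of the 10 regulators, in colours, under the main processing (top row) and each alternative (rows below), with dotted lines at 1.5-fold. Ppargc1b stays between -0.54 and -0.47 and Myc between -0.60 and -0.45 outside both spike-in scalings, which move all genes to the left together.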

How the data were processed

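The deposited scanner files give a spot intensity that the authors had background-subtracted and detrended with Agilent Feature Extraction 10.10.1.1, per the file headers (protocol GE1_1010_Sep10, design on mm9); the submitters' processing notes name version 9.1. This intensity is not normalized between arrays. The deposited value table is the same intensity times a factor per array (1.54 for the knockout, 1.55 for the wild type; column medians 66.5 and 59.6), found by matching spot numbers; how the factor was chosen stays unknown, and the table served as an alternative.

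Signals of spots that were not controls were divided by the 75th percentile of their array and taken to log2. Spots marked uneven or outlying were left out, and spots of a probe were averaged. Accessions were matched to RefSeq genes (GRCm38.p6, for names and promoter sequences), which named 27218 of 55649 probes. The brightest probe stood for a gene with several. A gene was measured when most of its spots were well above background on both arrays. No test was made, with 1 array per genotype. The steps were tested on simulated differences. The normexp alternative (limma 3.58.1, offset 50) used the median spot brightness in place of the planned mean. Summed marker signals are multiples of the 75th percentile. Python 3.11.15, pandas 2.3.3 and R 4.3.3 were used.

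The regulators and the lists were chosen with earlier results of these data known. The rule for naming genes was all 10 regulators with every probe, Dnmt3a, known partners and paralogues, Tfrc, Cycs and Creb1, and the 3 highest and 3 lowest measured genes of each related list. A few further genes of the lists (Perm1, Mnt, Atf2 and Ppara) were named after their values were seen. Slirp was also set against Lrpprc after their values were seen. Mitochondrially encoded transcripts were not analysed here. A few genes that the naming rule picks are not reported here by name.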

Additional observations from a re-analysis of the deposited data

How the results depend on the processing

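Of 10 alternatives, 2 were chosen after seeing the data (centring on blocks of the array and the spike-in shift by the median probe difference). Outside the spike-in scalings, Ppargc1b lay between -0.54 and -0.47 and the median of the regulators between -0.22 and -0.13. No member past 1.5-fold was found in any of them, except Myc (-0.60) after centring on blocks, 1 member. With that centring 710 of the 13476 measured genes were past 1.5-fold lower. Without the spots of the upper rows of the array, Polrmt and Tfb2m have no value. The mean over probes turned Nrf1 to 0.18 and Polg to 0.02, and Tfam to -0.12. With it 8 of 10 members lay below 0, as after centring on blocks. With spike-in scaling Ppargc1b was -1.12 and the median -0.80. Then 9 of 10 members were past 1.5-fold lower, against 6751 of the 13476 measured genes. With the spike-in shift Ppargc1b was -1.04 and the median -0.72. Then 6 of 10 members were past 1.5-fold lower, against 5279 of the 13476 measured genes. Genes past 1.5-fold numbered 784 higher and 632 lower of 13476 in the main setting. They were 50 and 6751 with spike-in scaling, 66 and 5279 with the spike-in shift, and 491 and 291 after normexp. When dim probes were not filtered out, they were 2564 and 1217, of 20650 genes. Without the upper rows 543 were higher and 418 lower, of only 9908 genes. Past 2-fold, the counts of 111 higher and 98 lower became 15 and 1351, 18 and 987, 42 and 26, and 1183 and 466 in the same order, and 65 and 48 without the upper rows. Removing spots or adding dim probes changes how many genes are counted; the cause was otherwise not tested. The share of genes past 2-fold that were higher was 53.1% in the main setting, 39.8% after quantile normalization and 71.7% with no filter. No paired analysis was possible because each genotype has 1 array. Signal over background limits the dimmer probes of Nrf1, Tfam and Esrrb.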
